A study of Mus musculus with 5 samples.

Results

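The comparison described here sets the lung of 4B(+/+) mice against the lung of C57 mice, 2 of the 5 arrays of the series. 4B(+/+) is the wild-type line kept for comparison with a knockout of the phosphodiesterase PDE4B, and C57 is the inbred strain C57BL/6J. The arrays were chosen by their sample titles alone, and the quantity described is the log2 intensity of 4B(+/+) minus that of C57. By its title 4B(+/+) is wild type for PDE4B, as is the inbred strain, so the targeted allele does not set the groups apart. They differ in origin, since the 4B(+/+) line started from a C57BL/6 × 129/Ola background and had 11 or more generations of backcrossing to C57BL/6J. All animals were naive females, so neither group received the elastase used in the emphysema model, and no age is used here. Of 5 lungs frozen per strain, RNA from 3 was mixed and hybridised to 1 array per strain. With 1 pool a side, no difference below has a replicate check and no p-value is given. The other 3 arrays, 4B(-/-), 4D(+/+) and 4D(-/-), have the same mixed origin and served to show where C57 and 4B(+/+) stood.

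Phosphodiesterases hydrolyse cyclic AMP and so end the signal that Gs-coupled receptors start through adenylyl cyclase. PDE4B is one of the main forms in leukocytes and lung. A wild-type line made beside a knockout is meant to share the background of the knockout without the targeted allele. Its distance from the parental inbred strain can hold part of what else a comparison with that strain contains. Without replicate pools, that distance also holds any difference between the pools themselves, such as in RNA length or time of day. The share of background in it was not tested.

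Some of the genes that set the arrays apart, a minority of those past 2-fold, fall under 3 transcription programmes whose promoter elements are well known. The circadian clock acts through E-boxes, bound by CLOCK or NPAS2 with BMAL1 (Arntl), and through D-boxes, bound by DBP, TEF and HLF and opposed by NFIL3. Immediate early genes such as Egr1 and Nr4a1 respond within minutes to growth factors, stretch, calcium and cyclic AMP, the last through the cyclic AMP response element. Heat shock genes respond to unfolded protein through inverted repeats of the unit GAA bound by HSF1.

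To show these elements in genes that moved, the 250 bases before a RefSeq transcription start (assembly GRCm38.p6) are given for 4 genes. They are written 5′ to 3′ on the gene's strand, with matches to the searched letters in capitals. Nr4a1 (chr15:101266596-101266845, plus strand) has the core CGTCA, the reverse complement of TGACG, at 4 places, starting at positions -233, -213, -69 and -40. Per3 (chr4:151044666-151044915, minus strand) has the D-box TTATGTAA at positions -205 and -158. Hlf (chr11:90390918-90391167, minus strand) has the full element TGACGTCA at position -9. Hsph1 (chr5:149636337-149636586, minus strand) has the paired heat shock units TTCTCGAA at position -33. Hsph1 has 2 starts, of which 1 is shown. Before the other start these units lie at position -54 and an E-box CACGTG at position -19.
Nr4a1: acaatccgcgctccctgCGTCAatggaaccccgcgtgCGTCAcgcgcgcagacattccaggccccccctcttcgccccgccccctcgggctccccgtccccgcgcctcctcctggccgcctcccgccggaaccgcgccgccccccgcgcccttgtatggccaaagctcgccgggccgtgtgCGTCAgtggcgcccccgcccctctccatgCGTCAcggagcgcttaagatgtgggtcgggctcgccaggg
Per3: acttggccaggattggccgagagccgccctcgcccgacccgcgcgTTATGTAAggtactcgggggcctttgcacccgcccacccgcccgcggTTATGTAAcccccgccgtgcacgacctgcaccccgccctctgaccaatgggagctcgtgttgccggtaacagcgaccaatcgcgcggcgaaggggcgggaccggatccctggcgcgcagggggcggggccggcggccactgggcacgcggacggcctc
Hlf: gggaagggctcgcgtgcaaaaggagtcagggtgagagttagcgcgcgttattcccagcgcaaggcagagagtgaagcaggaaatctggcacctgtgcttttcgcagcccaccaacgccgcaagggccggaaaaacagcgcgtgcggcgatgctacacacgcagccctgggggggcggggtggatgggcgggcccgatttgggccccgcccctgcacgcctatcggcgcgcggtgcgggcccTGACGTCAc
Hsph1: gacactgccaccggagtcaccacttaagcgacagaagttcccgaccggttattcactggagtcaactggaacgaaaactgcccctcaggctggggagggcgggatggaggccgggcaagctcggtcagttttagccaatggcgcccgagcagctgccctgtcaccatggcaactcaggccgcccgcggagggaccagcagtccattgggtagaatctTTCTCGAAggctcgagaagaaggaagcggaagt

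Both strands were searched for CACGTG (E-box), TTATGTAA and TTACGTAA (D-box), TGACGTCA and its core TGACG (cyclic AMP response element, the core lying inside the full element), and GAANNTTC and TTCNNGAA (paired heat shock units). RefSeq promoters were found for 9281 of the genes over the expression floor. Of these, 9.85% held an E-box, 0.765% a D-box, 2.88% the full cyclic AMP response element, 30.2% its core and 12.2% paired heat shock units. Over all 27025 genes of the promoter table the shares were 6.86%, 1.10%, 1.77%, 19.8% and 14.5%, in the same order. A match describes the letters in the window and is not a measured binding site, and no match says only that these letters are not in these 250 bases.

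The submitters' processing by RMA makes array distributions equal. Like medians, like shares over a floor and a median difference near 0 come with it and are not a result. Median intensities of the 5 arrays lay between 45.4 and 46.6, and 43.7% to 44.0% of 45101 probe sets reached an intensity of 64, the floor used for expression. Of 18194 genes with a probe set of their own, 11500 reached that floor in at least 1 array, and over these the log2 difference of 4B(+/+) and C57 had a median of 0.0 and an SD of 0.28. Between the 5th and the 95th percentile the difference ran from -0.38 to 0.37, and 79.6% of genes lay within 1.2-fold. The 3′ to 5′ ratio of the Gapdh control probes, a sign of RNA length, was 1.72 in C57 and 1.37 in 4B(+/+), and that of the actin probes 1.89 and 1.63. C57 thus had the higher ratio for both controls, and the part of this in the results below was not tested.

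Against that background, 96 genes were at least 2-fold higher in 4B(+/+), 0.835% of those counted, and 24 were at least 2-fold lower, 0.209%. At 1.5-fold, the limit used for members of gene lists, 2.23% of genes were higher and 1.33% lower. Of the 96 higher genes 63 belong to one or more of the gene lists used here, with 18 on the list for cartilage, bone and tendon, 10 on that for skeletal muscle, 8 on that for fat and 4 on that for heat shock chaperones. Of the 24 lower genes 3 are on the list for the core loop of the clock, 5 on that for its output and 3 on that for immediate early transcription factors. Of all 11500 counted genes, 738 are on a list. Members and lists were chosen with earlier results of these data known, so these counts describe the called genes and are not a test of the lists. The median fold was 2.46 among the higher and 2.58 among the lower genes, and 26 and 8 of them passed 3-fold. In 39 of the 96 higher genes the C57 value lay under 64, where folds are poorly determined. Genes whose mean over both arrays lay under 64 had the widest spread of differences, with an SD of 0.46, against 0.26 at 1024 and above. With the dimmer array raised to 64 before taking the fold, 69 higher and 21 lower genes still passed. Among the genes named below, Rag1, Otor, Col11a1, Ccl28, Pla2g5, Hapln1, Col9a1, Orm1, Krt4, Cemip, Npas2, Cpa3, Ccl20, Col9a3, Fzd9, Prss16, Myh2, Rbm46, Zc3h6 and Tnfrsf13c did not keep the 2-fold call on that scale.

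**Figure D1:**
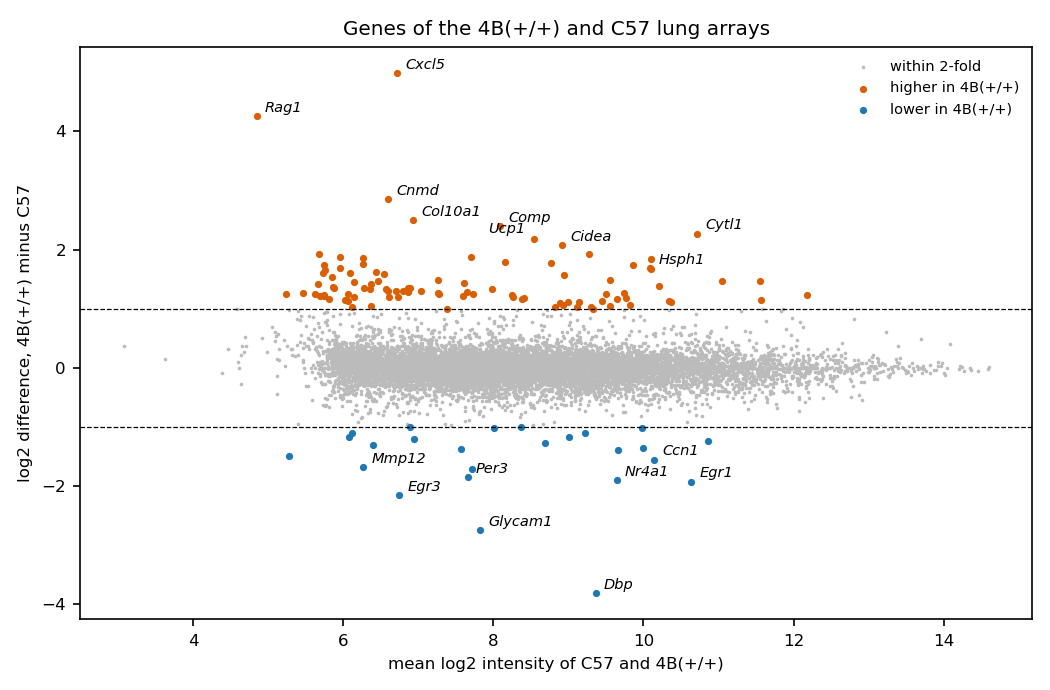
Log2 difference of 4B(+/+) minus C57 (vertical axis) against the mean log2 intensity of both arrays (horizontal axis), 1 point per gene over the floor, with 2-fold limits as dashed lines. Orange points are the 96 genes higher and blue points the 24 genes lower in 4B(+/+), with Cxcl5 at 4.99 and Dbp at -3.82 farthest from 0.

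The position of the arrays among all 5 differed by direction. A call already sets the order of C57 and 4B(+/+), so only the other 3 arrays were free to lie beyond either of them. C57 was the highest of the 5 arrays in 22 of the 24 genes lower in 4B(+/+), and at least 1.5-fold above every other array in 17 of them. 4B(+/+) was the lowest of the 5 in 5, and in 0 was it 1.5-fold below every other array. Among the 96 higher genes C57 was the lowest array in 74 and 4B(+/+) the highest in 45, both at once in 42 and neither in 19. 4B(+/+) stood at least 1.5-fold above all other arrays in 7 genes, which were Cxcl5, Comp, Col9a1, Cemip, Wif1, Col9a3 and Fzd9, a group chosen after its values were seen. The call depended on the reference array: against 4D(+/+), a wild-type line of the same origin, 11 genes were higher and 103 lower in 4B(+/+).

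The largest fall was in a gene of the circadian clock. In the core loop 7 of 15 genes were at least 1.5-fold lower in 4B(+/+) and 2 higher, with a median log2 difference of -0.37, against 0.0 over all genes. Of 14 output genes 7 were lower, 2 were higher and the median was -0.55. Dbp, the D-box activator driven directly by the clock, read 2475 in C57, 176 in 4B(+/+), 146 in 4B(-/-), 233 in 4D(+/+) and 247 in 4D(-/-), a level 14.1-fold lower in 4B(+/+). C57 alone was high, and the 4 other arrays lay close together. Another Dbp probe set showed the same order, at 721 in C57 and 78 in 4B(+/+).

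The negative limb of the loop was lower in 4B(+/+). Per3, a period protein that joins the repressor complex, read 385 in C57, 106 in 4B(+/+), 92.1 in 4B(-/-), 111 in 4D(+/+) and 108 in 4D(-/-), 3.63-fold lower. Per2 read 307 in C57, 118 in 4B(+/+), 88.1 in 4B(-/-), 110.1 in 4D(+/+) and 117 in 4D(-/-), 2.60-fold lower. Per1 was 1.66-fold lower, the cryptochrome Cry2 1.57-fold and the repressor Ciart 1.91-fold. In each of these 5 genes C57 was the highest array. Nr1d2, a haem-binding nuclear receptor that represses Arntl, was 2.37-fold lower at 1208 against 2868 in C57, and its relative Nr1d1 1.63-fold lower at 123 against 201.

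The positive limb was higher. Arntl, which encodes the activator BMAL1, read 160 in C57, 402 in 4B(+/+), 379 in 4B(-/-), 356 in 4D(+/+) and 320.3 in 4D(-/-), 2.52-fold higher in 4B(+/+). Npas2, a partner of BMAL1, read 37.0 in C57 and 94.3 in 4B(+/+), 2.55-fold higher from a value under the floor, with the other arrays at 74.0 to 84.2. C57 was the lowest array for both. Clock itself was 1.29-fold higher, and Csnk1d, a kinase that phosphorylates period proteins, 1.21-fold. The remaining core genes differed little, with Bhlhe40 1.29-fold, Cry1 1.19-fold, Rora 1.17-fold and Csnk1e 1.04-fold lower.

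Among output genes the 3 D-box activators fell together. Hlf read 381 in C57 and 110 to 116 in the other arrays, 3.28-fold lower in 4B(+/+). Tef read 1630 in C57, 637 in 4B(+/+), 673 in 4B(-/-), 651 in 4D(+/+) and 611 in 4D(-/-), 2.56-fold lower. Their antagonist Nfil3 went the other way, from 64.9 in C57 to 148 in 4B(+/+), 2.28-fold higher, with the other arrays at 128.2 to 154. Cirbp, a cold-inducible RNA-binding protein, was 2.41-fold lower at 265 against 639, and the tetraspanin Tspan4 2.64-fold lower at 498 against 1316.

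Smaller differences completed the output list. The deubiquitinase Usp2 and the cell cycle kinase Wee1 were each 1.55-fold lower, while Leo1, a subunit of the PAF1 complex of elongating polymerase, was 1.54-fold higher. Coq10b was 1.38-fold lower and Nampt, which makes the precursor of NAD, 1.13-fold lower. Lonrf3 was 1.15-fold, Alas1 of haem synthesis 1.10-fold and Pnp 1.04-fold higher. Over the core loop C57 was the highest of the 5 arrays in 11 genes and the lowest in 4, which together are all 15. The clock difference is thus one between C57 and the other 4 arrays, and against 4D(+/+) the medians of 4B(+/+) turned to 0.05 for the core loop and 0.01 for output genes. The medians of 4D(+/+) minus C57, which use the same C57 array, were -0.46 and -0.51. The sources used here do not give the time of day at which lungs were taken.

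**Figure D2:**
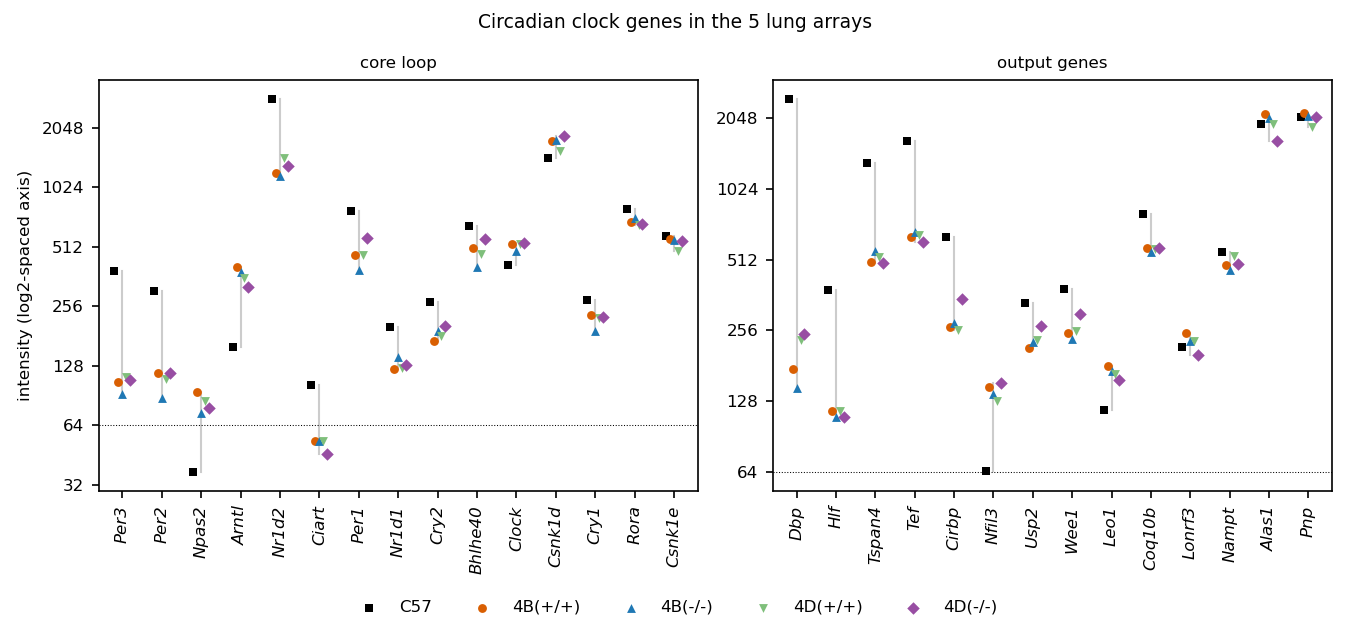
Intensity in each of the 5 arrays (vertical axis, log2-spaced) of the 15 core loop genes (left) and 14 output genes (right) of the clock, ordered by the size of the difference, with the floor of 64 dotted. C57 (black squares) lies apart at the left of each panel, above the others for Per3, Per2 and Dbp and below them for Npas2, Arntl and Nfil3, while the 4 other arrays cluster.

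Of the clock genes found in the promoter table, an E-box lay in 3 of 12 core loop genes (25%) and 4 of 13 output genes (30.8%), against 9.85% of genes over the floor. In the immediate early lists described next the share was 26.7% of the factors and 25% of the effectors, and in the chaperones 9.52%. D-boxes were rarer, in 1 gene of each list, and in the core loop that gene is Per3, with the repeated TTATGTAA shown above. The window before Dbp held none of the searched motifs.

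Immediate early transcription factors were lower in 4B(+/+), in 5 of 18 genes past 1.5-fold with 0 higher and a median of -0.28. Egr3 read 227 in C57, 50.7 in 4B(+/+), 20.2 in 4B(-/-), 78.4 in 4D(+/+) and 99.0 in 4D(-/-), 4.47-fold lower. Egr1, a zinc finger factor of the same family, read 3115 in C57, 815 in 4B(+/+), 541 in 4B(-/-), 1006 in 4D(+/+) and 866 in 4D(-/-), 3.82-fold lower. Nr4a1, an orphan nuclear receptor, read 1548 in C57, 414 in 4B(+/+), 226 in 4B(-/-), 726 in 4D(+/+) and 581 in 4D(-/-), 3.74-fold lower. All 3 were highest in C57, and 4B(+/+) was the next to lowest array for each. Fos, which pairs with Jun in AP-1, was 1.76-fold lower at 756 against 1334.

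The rest of the factor list moved less. Nr4a2 was 1.58-fold lower at 288 against 456, but 4D(-/-) read 469.8, above C57. Egr2 was 1.39-fold, Atf3 1.36-fold, and Jun and the endothelial flow-responsive factor Klf2 each 1.29-fold lower. Of the 18 factors 15 lay below 0 and 3 above. Nr4a3, picked after seeing its value, was 1.24-fold higher at 473 against 383.

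Effectors and feedback genes of the same response were lower in 6 of 22 and higher in 1, with a median of -0.22. Ccn1, a secreted matricellular protein, read 1947 in C57, 659 in 4B(+/+), 589 in 4B(-/-), 837 in 4D(+/+) and 544 in 4D(-/-), 2.96-fold lower. A further Ccn1 probe set gave -1.52 on the log2 scale, and 2 dimmer ones gave 0.05 and 0.31, so the probe sets of this gene disagree. Ier3 was 1.75-fold lower, Sik1, a kinase induced by cyclic AMP that restrains CREB coactivators, 1.67-fold, and the prostaglandin synthase Ptgs2 1.67-fold. Zfp36, which destabilises cytokine mRNA, was 1.55-fold and Rgs2 1.52-fold lower, and Gadd45g was 1.58-fold higher.

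Cyclic AMP response element cores lay in 11 of the 15 factors with a promoter in the table (73.3%), against 30.2% of genes over the floor, 46.2% of clock output genes and 47.6% of chaperones. Among the factors past 1.5-fold, Nr4a1, Fos and Nr4a2 held it, while Egr1 and Egr3 had no promoter in the table and were not searched. Junb, Klf4 and Maff, picked after seeing their values, held it too, with log2 differences of -0.09, -0.08 and 0.11. Against 4D(+/+) in place of C57 the median of the factors was 0.03. Minus C57, 4D(+/+) itself had -0.28, with the C57 array in common.

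Heat shock chaperones were higher in 4B(+/+), in 10 of 25 genes past 1.5-fold with 0 lower and a median of 0.56. C57 was the lowest of the 5 arrays in 20 of the 25 and 4B(+/+) the highest in 9. Hsph1, an HSP110 that recharges HSP70, read 610.4 in C57, 1950 in 4B(+/+), 1853 in 4B(-/-), 1617 in 4D(+/+) and 1348 in 4D(-/-), 3.19-fold higher. A further Hsph1 probe set read 198 and 750, a log2 difference of 1.92. Hspa1a and Hspa1b, the stress-inducible HSP70 genes, are near-identical, and their probes cannot be assumed to tell them apart. Hspa1a read 578 in C57, 1313 in 4B(+/+), 705 in 4B(-/-), 948 in 4D(+/+) and 936 in 4D(-/-), 2.27-fold higher, and Hspa1b was 2.21-fold higher.

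Cochaperones moved the same way. Ahsa2 was 2.28-fold higher at 463 against 203, the HSP40 Dnaja1 1.98-fold at 4295 against 2164, and Chordc1 1.95-fold at 1805 against 924. Stip1, which links HSP70 to HSP90, and the small heat shock protein Hspb1 were each 1.62-fold higher. Some abundant chaperones, picked after seeing their values, differed less, with the constitutive HSP70 Hspa8 1.11-fold and the HSP90 Hsp90aa1 1.10-fold higher and the small heat shock protein Cryab 1.24-fold lower. Against 4D(+/+) the median of the chaperones was 0.00, and the median of 4D(+/+) minus the shared C57 array was 0.53.

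Paired heat shock units lay in 9 of the 21 chaperones with a promoter in the table (42.9%), against 12.2% of genes over the floor. Of these 9, 6 were past 1.5-fold, with a median of 0.69 and a range of 0.20 to 1.68. Of the 12 without, 4 were past 1.5-fold, with a median of 0.50 and a range of 0.01 to 1.19. The ranges overlap.

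Folding genes of the endoplasmic reticulum, which answer to a separate unfolded protein response, shifted less. Of 20 genes 2 passed 1.5-fold, Sdf2l1 at 1.65-fold and the secreted factor Manf at 1.59-fold higher, and the median was 0.26. C57 was nonetheless the lowest array in 15 of the 20. Creld2 was 1.44-fold, the disulfide isomerase Pdia6 1.43-fold, asparagine synthetase Asns 1.40-fold, Ddit3 1.38-fold, the HSP70 of this compartment Hspa5 1.34-fold and Trib3 1.28-fold higher.

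**Figure D3:**
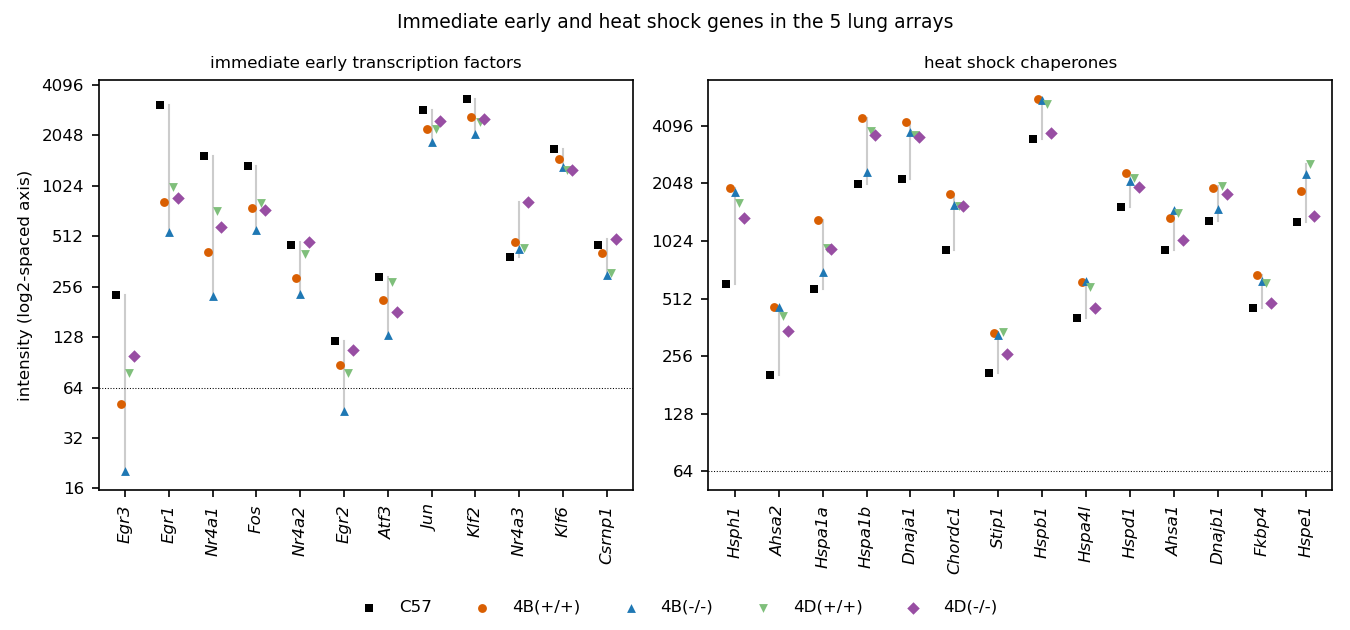
Intensity in the 5 arrays (vertical axis, log2-spaced) of the 12 immediate early transcription factors (left) and 14 heat shock chaperones (right) with the largest differences, with the floor of 64 dotted. C57 (black squares) is highest for Egr3, Egr1, Nr4a1 and Fos and lowest for Hsph1, Ahsa2, Dnaja1 and Chordc1, and 4B(-/-) is the lowest array for the first 3 factors.

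Glucocorticoid-responsive genes went both ways, 4 of 16 higher and 1 lower (median 0.17). Cdkn1a, the cell cycle inhibitor p21, read 731 in C57, 1918 in 4B(+/+), 2203 in 4B(-/-), 1145 in 4D(+/+) and 2143 in 4D(-/-), 2.62-fold higher. Pdk4, a kinase that shuts glucose carbon out of the mitochondrial citrate cycle, was 2.04-fold higher at 789 against 387, and C57 was the lowest array for both. Angptl4 was 1.83-fold and the metallothionein Mt2 1.55-fold higher, and Mt1 1.34-fold. Fkbp5, a sensitive glucocorticoid target, was 1.31-fold higher at 321 against 245, and Per1, a clock and glucocorticoid gene, 1.66-fold lower.

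Cartilage genes stood out most among markers of tissues beside the alveoli. Of 21 cartilage, bone and tendon genes over the floor 18 were past 2-fold higher and 0 lower, and the median was 1.35. With the dimmer array raised to 64, 13 of the 18 kept the call. The other 6 of 27 measured stayed under the floor in all arrays, and in 10 the intensity passed 64 in 4B(+/+) but not in C57. Cnmd, the angiogenesis inhibitor chondromodulin, read 36.1 in C57, 261 in 4B(+/+), 192 in 4B(-/-), 111 in 4D(+/+) and 138 in 4D(-/-), 7.23-fold higher. Col10a1, the collagen of hypertrophic cartilage, read 51.4 in C57, 291 in 4B(+/+), 209.7 in 4B(-/-), 172 in 4D(+/+) and 136 in 4D(-/-), 5.67-fold higher. Comp, a matrix protein of cartilage and tendon, read 119 in C57, 624 in 4B(+/+), 344 in 4B(-/-), 366 in 4D(+/+) and 314 in 4D(-/-), 5.23-fold higher. 4B(+/+) was the highest and C57 the lowest array for all 3.

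The fibrillar partners of cartilage followed. Col2a1, its main collagen, read 42.0 in C57, 142 in 4B(+/+), 78.4 in 4B(-/-), 35.0 in 4D(+/+) and 98.3 in 4D(-/-), 3.38-fold higher. Col11a1 was 3.65-fold, Col9a1 3.06-fold, the link protein Hapln1 3.17-fold and matrilin Matn1 3.07-fold higher, each from a C57 value under 64. C57 was the lowest array in 18 of the 21 genes and 4B(+/+) the highest in 15. The summed intensity of the list was 2430 in C57, 5735 in 4B(+/+) and from 3911 to 4283 elsewhere. The same list stood 0.85 above C57 in 4D(+/+), and 4B(+/+) remained above 4D(+/+), by a median of 0.59.

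Further genes of connective tissue appeared among the 25 largest rises without being on that list. Cytl1, a secreted cytokine-like protein first found in CD34+ cells and abundant in cartilage, read 765 in C57, 3695 in 4B(+/+), 3490 in 4B(-/-), 2024 in 4D(+/+) and 1916 in 4D(-/-), 4.83-fold higher. Otor, a secreted protein of cochlea and cartilage, was 3.82-fold higher at 100.2 against 26.2. The Wnt antagonist Frzb was 3.63-fold higher at 146 against 40.3, and C57 was the lowest array for these 3. Of the Wnt pathway genes named above for standing over all other arrays, the secreted inhibitor Wif1 read 98.8 in C57, 238 in 4B(+/+), 140.0 in 4B(-/-), 106 in 4D(+/+) and 150 in 4D(-/-). The receptor Fzd9 read 107 in 4B(+/+) and 46.6 to 66.8 elsewhere.

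Fat genes were higher too, 12 of 17 past 1.5-fold and 0 lower, with a median of 0.99. Ucp1, the uncoupling protein of brown fat, read 176 in C57, 792 in 4B(+/+), 251 in 4B(-/-), 986 in 4D(+/+) and 92.2 in 4D(-/-), 4.49-fold higher. Cidea, a lipid droplet protein of brown fat, read 237 in C57, 993 in 4B(+/+), 462 in 4B(-/-), 1257 in 4D(+/+) and 164 in 4D(-/-), 4.19-fold higher. Here C57 was not the outlying array, since 4D(-/-) read lower for both and 4D(+/+) higher. Adiponectin (Adipoq), a hormone of all fat, read 615 in C57, 1952 in 4B(+/+), 1689 in 4B(-/-), 2065 in 4D(+/+) and 468 in 4D(-/-), 3.18-fold higher.

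Further members of the fat list were past 2-fold. Thrsp, a regulator of lipogenesis, was 3.59-fold, the hormone resistin (Retn) 3.40-fold, the acute-phase protein Orm1 3.03-fold, Pck1 of glyceroneogenesis 2.98-fold and the brown-fat cytochrome oxidase subunit Cox8b 2.80-fold higher. Dio2, a deiodinase of brown fat that activates thyroid hormone and was picked after seeing its value, was 3.0-fold higher at 162 against 54.0. In the list of lipid synthesis and surfactant lipid genes, 4 of 23 were higher and 0 lower around a median of 0.0. Besides Thrsp these were the elongase Elovl6 at 2.35-fold, the triglyceride synthase Dgat2 at 2.16-fold and Acaca at 1.63-fold, while Me1 was 1.47-fold higher and the sterol genes Insig1 and Hmgcs1 were 1.34-fold and 1.31-fold lower. The summed fat list was 14440 in C57, 27840 in 4B(+/+) and between 13060 and 34630 in the other 3 arrays. Against 4D(+/+) the median of the fat list turned to -0.10.

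Skeletal muscle genes were higher in 19 of 26 with 0 lower and a median of 0.87. Acta1, the actin of skeletal muscle, read 878 in C57, 1925 in 4B(+/+), 1034 in 4B(-/-), 7135 in 4D(+/+) and 1750 in 4D(-/-), 2.19-fold higher. Creatine kinase Ckm was 2.19-fold, the fast troponins Tnnc2, Tnni2 and Tnnt3 2.17-fold, 2.16-fold and 2.05-fold, and the light chains Mylpf and Myl1 2.09-fold each higher. Myh2, a fast myosin heavy chain, was 2.05-fold higher at 119 against 57.8. The largest differences were all near 2-fold, with the highest at 1.13 on the log2 scale. 4D(+/+) carried far more of these transcripts, with a summed intensity of 68660 against 10630 in C57, 18710 in 4B(+/+), 12060 in 4B(-/-) and 18480 in 4D(-/-). Against 4D(+/+) the list median of 4B(+/+) was -1.87.

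Heart muscle genes, which mouse lung contains in the sleeve of the pulmonary veins, shifted less, 3 of 19 higher with a median of 0.34. One of the 3 is Myl1, shared with skeletal muscle. The natriuretic peptide Nppa and the myosin-binding protein Mybpc3 were each 1.53-fold higher, Myl4 1.40-fold, Corin 1.39-fold, Tnnt2 and Sln 1.34-fold and Csrp3 1.33-fold. C57 was the lowest of the 5 arrays in 13 of the 19.

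**Figure D4:**
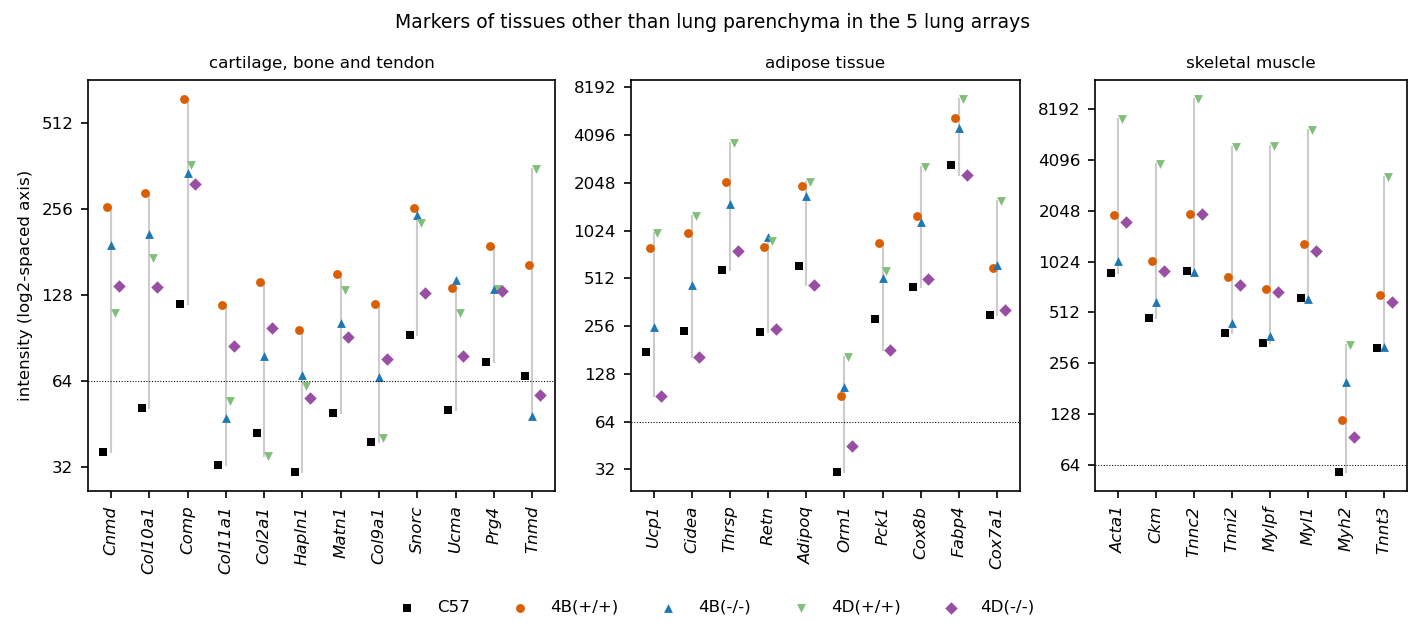
Intensity in the 5 arrays (vertical axis, log2-spaced) of genes with the largest differences among markers of cartilage (12 genes), fat (10) and skeletal muscle (8), with the floor of 64 dotted. C57 (black squares) lies at the bottom for most genes, 4B(+/+) (orange circles) at the top for the leading cartilage genes, and 4D(+/+) (green triangles pointing down) at the top for muscle.

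Glands and mucosa gave 9 of 15 genes higher and 1 lower (median 0.82). Amylase (Amy1) read 61.7 in C57, 152 in 4B(+/+), 99.0 in 4B(-/-), 202 in 4D(+/+) and 46.1 in 4D(-/-), 2.47-fold higher. Tff2, a trefoil peptide of gastric mucus, was 2.41-fold higher at 1335 against 554, with 305 in 4B(-/-) and 4253 in 4D(+/+). The arrays of the other lines thus lay on both sides of the pair. Lactoferrin (Ltf), made by glands and by neutrophils, read 3038 in C57, 7136 in 4B(+/+), 3598 in 4B(-/-), 7272 in 4D(+/+) and 3471 in 4D(-/-), 2.35-fold higher. Dcpp3 was 1.94-fold, Agr2 1.93-fold, Gp2 1.84-fold and Wfdc18 1.79-fold higher, and the proline-rich Prpmp5 was 1.94-fold lower with both values under 64.

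Endocrine genes of the neck were higher as well, 4 of 7 thyroid and parathyroid genes with a median of 0.59. Pth, the parathyroid hormone, read 1799 in C57, 4999 in 4B(+/+), 432 in 4B(-/-), 7455 in 4D(+/+) and 2155 in 4D(-/-), 2.78-fold higher. Thyroglobulin (Tg) was 1.57-fold higher at 4802 against 3065, the deiodinase of iodotyrosine Iyd 1.65-fold and the anion exchanger Slc26a7 1.51-fold. Chromogranin A (Chga), the core protein of endocrine secretory granules, read 319 in C57, 1204 in 4B(+/+), 74.8 in 4B(-/-), 1372 in 4D(+/+) and 431 in 4D(-/-), 3.77-fold higher. It led the neuroendocrine and nerve list, of which 4 of 8 were higher with a median of 0.52, followed by S100b of glia and cartilage at 2.46-fold, Scg2 at 1.58-fold and Scg5 at 1.51-fold, the last with both values under 64. With the mean of 4B(+/+) and 4B(-/-) against C57 the thyroid list fell to -0.22, Pth to -0.29 and Chga to -0.09, because 4B(-/-) reads below C57 for them.

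Squamous and basal epithelium gave 6 of 13 genes higher and a median of 0.54. Krt4 was 2.73-fold higher at 117 against 42.9, Krt15 2.24-fold, Dapl1 1.83-fold, the basal cell factor Trp63 1.76-fold, Lypd2 1.57-fold, Anxa8 1.51-fold and Krt5 1.45-fold. Krt13, the keratin of oesophageal lining, was under 10 in both arrays and 119 in 4D(+/+). Of 10 mesothelial genes 1 was higher, mesothelin (Msln) at 1.85-fold. In so short a list, 1 cannot be told from the 2.23% of all genes. The 10 liver genes all stayed under the floor in every array, with albumin (Alb), picked after seeing its value, at 30.3 in C57 and 28.5 in 4B(+/+). In a tissue extract, more or fewer cells of a type and more or less RNA per cell cannot be told apart, and the part of tissue beside the lung in these pools was not tested.

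**Figure D5:**
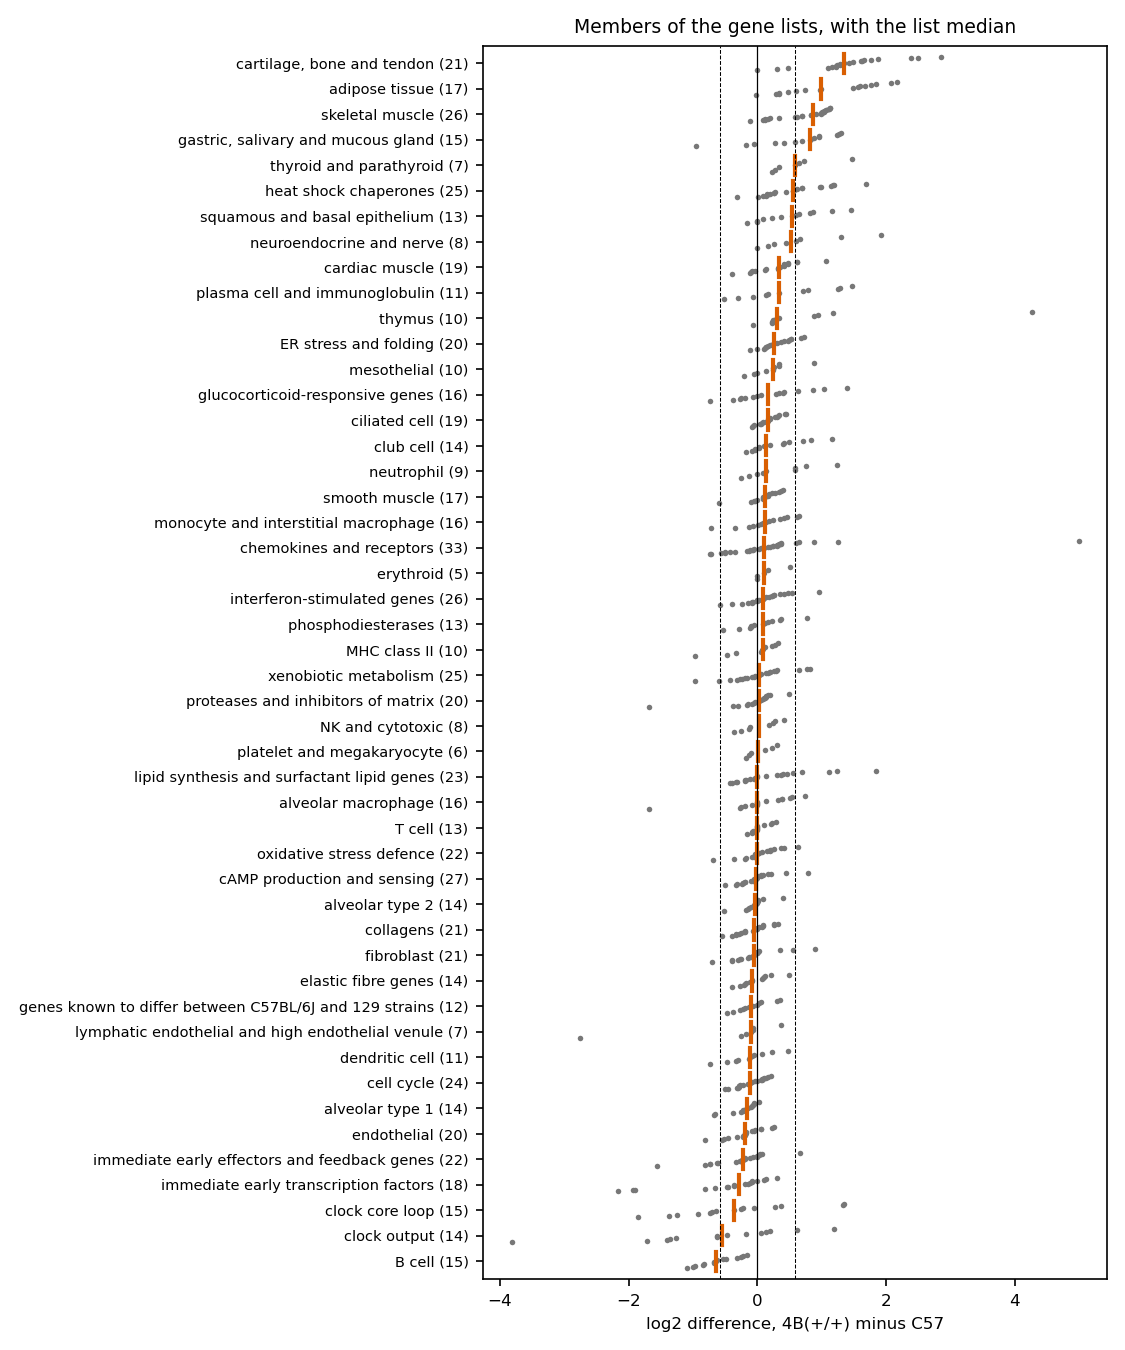
Log2 difference of 4B(+/+) minus C57 (horizontal axis) for the members of the 48 gene lists with at least 5 genes over the floor, 1 grey point per gene and an orange bar for the list median, with the number of genes in brackets and 1.5-fold limits dashed. Medians run from -0.65 for B-cell genes and -0.55 for clock output to 0.99 for fat and 1.35 for cartilage, and lists of lung cell types lie near 0.

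The lists for cells of the lung itself had medians near 0. At 1.5-fold, 2.23% of all genes were higher and 1.33% lower. Of 14 alveolar type 2 genes 0 passed 1.5-fold either way and the median was -0.03. The surfactant gene Sftpc, picked after seeing its value, read 24790 in C57 and 24900 in 4B(+/+), and the factor Etv5 differed most, 1.43-fold lower. Of 14 alveolar type 1 genes 2 were lower, Lmo7 at 1.59-fold and the kinase anchor Akap5 at 1.57-fold, with a median of -0.16 and 13 of 14 below 0. Endothelial genes were similar, 1 of 20 lower with a median of -0.19, the apelin receptor Aplnr at 1.77-fold, followed by Tie1 at 1.47-fold and the endothelin receptor Ednrb at 1.43-fold. C57 was the highest array in 10 of the type 1 genes and 11 of the endothelial genes.

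Airway cell lists differed in how many genes passed the limit. Of 14 club cell genes 3 were past 1.5-fold higher, against 2.23% of all genes, with a median of 0.14. They were Krt15, also on the squamous and basal list, the antimicrobial lectin Reg3g at 1.79-fold and the antibody transporter Pigr at 1.63-fold. Ciliated cells had 0 of 19 past 1.5-fold and a median of 0.16, with 16 of 19 above 0 and Dnaic1 of the outer dynein arm highest at 1.36-fold. Fibroblast genes split, with lumican (Lum) 1.86-fold higher at 653 against 351 and the growth factor receptor Pdgfrb 1.62-fold lower at 2106 against 3416, and their median was -0.06. In smooth muscle 1 of 17, the hedgehog-binding Hhip, was 1.51-fold lower, and the median was 0.12.

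Genes of the extracellular matrix that gives the lung its recoil had medians near 0. Of 21 collagens of lung 0 passed 1.5-fold, with a median of -0.06 and the basement membrane chain Col4a5 farthest at 1.46-fold lower. Of 14 elastic fibre genes 0 passed, with a median of -0.09, elastin (Eln) 1.09-fold higher and its crosslinking enzyme Lox 1.41-fold higher. In lists of this size, counts of 0 are near the share of all genes, 2.23% higher and 1.33% lower. Of 20 matrix proteases and inhibitors 1 passed. Mmp12, the macrophage elastase central to emphysema models, read 138 in C57, 42.8 in 4B(+/+), 45.4 in 4B(-/-), 52.3 in 4D(+/+) and 67.3 in 4D(-/-), 3.23-fold lower. C57 alone lay clearly over the floor for this gene.

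Immune genes differed in both directions. Cxcl5, a chemokine of epithelial cells that attracts neutrophils through CXCR2, read 18.7 in C57, 593 in 4B(+/+), 194 in 4B(-/-), 130.3 in 4D(+/+) and 53.8 in 4D(-/-), 31.7-fold higher. The arrays spread over the whole range between the pair, and the fold rests on a C57 value far below the floor. With C57 raised to 64 the fold was 9.26, smaller than that of Dbp at 14.1, which has both values over the floor. Of 33 chemokines and receptors 5 were higher and 2 lower (median 0.11). Ccl20, which draws CCR6-bearing lymphocytes, was 2.37-fold higher at 103 against 43.6. Ccl25 was 1.84-fold, Ccl8 1.56-fold and Cxcl9 1.52-fold higher, and the receptors Ccr7 and Ccr2 were 1.66-fold and 1.65-fold lower. Ccl28, a mucosal chemokine that the list does not hold, is among the 25 largest rises, 3.35-fold higher at 98.6 against 29.4.

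Neutrophil genes were higher in 4 of 9 with a median of 0.13. Besides lactoferrin these were Clec4d at 1.70-fold, S100a8 at 1.51-fold and S100a9 at 1.5-fold. The granule genes Mpo, Elane, Camp and Ngp, picked after seeing their values, were at 24 or less in both arrays. Lcn2 was 1.2-fold and Il1b 1.09-fold lower, and Mmp9 and Trem1 were 1.09-fold and 1.07-fold higher.

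B-cell genes were lower in 4B(+/+), 9 of 15 past 1.5-fold, 0 higher and all 15 below 0, with a median of -0.65. Tnfrsf13c, the receptor for the survival factor BAFF, read 101 in C57, 47.2 in 4B(+/+), 39.4 in 4B(-/-), 59.0 in 4D(+/+) and 72.3 in 4D(-/-), 2.14-fold lower. Ms4a1, which encodes CD20, read 585 in C57, 366 in 4B(+/+), 340.0 in 4B(-/-), 371 in 4D(+/+) and 494 in 4D(-/-), 1.60-fold lower. C57 was the highest array in 12 of the 15, and 4D(-/-) the nearest to it in both genes above. The lymphoid factor Spib was 2.0-fold, H2-Ob 1.95-fold, Fcer2a 1.81-fold, Fcrla 1.78-fold, the receptor subunit Cd79b 1.59-fold and Cd72 1.57-fold lower. The summed list was 3004 in C57 and 2008 in 4B(+/+). Against 4D(+/+) the median was -0.02, and that of 4D(+/+) minus the shared C57 array was -0.66.

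Part of the list for antibody secretion went the opposite way. Of 11 genes 5 were past 1.5-fold higher, 8 lay above 0 and 3 below, and the median was 0.33. Igha, the heavy chain of IgA, read 1270 in C57, 3520 in 4B(+/+), 2959 in 4B(-/-), 3556 in 4D(+/+) and 4114 in 4D(-/-), 2.77-fold higher. Its 2 other probe sets gave log2 differences of 1.44 and 1.58. The joining chain Jchain was 2.37-fold higher at 1115 against 470.1, Ighm 1.73-fold and Pigr, also on the club cell list, 1.63-fold. Iglv1 was 2.42-fold higher by its brightest probe set, but another one over the floor was lower by 0.24 on the log2 scale, so its direction is unsettled. Sdc1, a surface marker of plasma cells that epithelium also carries, was 1.43-fold lower, and Prdm1 1.24-fold lower. Mzb1 and Xbp1, picked after seeing their values, were 1.05-fold lower and 1.11-fold higher. The heavy chain segment Ighv14-2, which the list does not hold, was 2.31-fold lower.

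Precursor lymphocyte genes separated the arrays in another order. Rag1, the recombinase of developing lymphocytes, read 6.57 in C57, 126 in 4B(+/+), 331 in 4B(-/-), 98.1 in 4D(+/+) and 10.6 in 4D(-/-), 19.2-fold higher from a value far below the floor. With C57 raised to 64 the fold was 1.97, which does not pass 2-fold. The thymic protease Prss16 was 2.26-fold higher at 84.7 against 37.5, the terminal transferase Dntt 1.92-fold at 75.7 against 39.5, and the thymic chemokine Ccl25 1.84-fold at 79.2 against 43.0. These are the 4 of 10 thymus genes past 1.5-fold, and 4B(-/-) was the highest array for each. The summed thymus list was 714 in C57, 1068 in 4B(+/+) and 1962 in 4B(-/-), and Rag2 and Ptcra, picked after seeing their values, stayed under 25 in both arrays. T-cell genes gave 0 of 13 past 1.5-fold and a median of 0.0, and NK genes 0 of 8 and 0.03. In lists so short, 0 cannot be told from the share of all genes, 2.23% higher and 1.33% lower.

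Glycam1, a mucin ligand for L-selectin on high endothelial venules, was 6.75-fold lower. It read 588 in C57, 87.2 in 4B(+/+), 16.4 in 4B(-/-), 85.2 in 4D(+/+) and 1116 in 4D(-/-). The 2 high arrays are therefore C57 and 4D(-/-), and the 6 other lymphatic and venule genes lay within 1.5-fold. Ackr1, also found on venules, was 1.29-fold higher.

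Lists of myeloid and antigen-presenting cells had single genes past 1.5-fold, where 2.23% of all genes were higher and 1.33% lower. In lists of this size a count of 1 cannot be told from that share. Cidec, Mmp12, Ccr2, Ccr7 and H2-Ob are also counted under other lists. Monocyte and interstitial macrophage genes gave 2 of 16 higher and 1 lower, the endotoxin coreceptor Cd14 at 1.56-fold, the folate receptor Folr2 at 1.52-fold and Ccr2. Among 16 alveolar macrophage genes Cidec was 1.67-fold higher and Mmp12 lower, around a median of 0.0. Ccr7 was the only one of 11 dendritic cell genes past the limit. Class II genes gave 1 of 10, H2-Ob, and a median of 0.08. Mast cell carboxypeptidase Cpa3 was 2.40-fold higher at 68.6 against 28.6, but Kit, which other lung cells also express, was 1.39-fold lower. Of 26 interferon-stimulated genes 1 was higher, Ifi27l2a at 1.94-fold, while Ifit3 lay just inside the limit at -0.58 on the log2 scale, and the median was 0.09.

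The gene targeted in the knockout was measured by several probe sets. Of 6 Pde4b probe sets 3 were over the floor. The brightest read 438 in C57, 558 in 4B(+/+), 457 in 4B(-/-), 468 in 4D(+/+) and 466 in 4D(-/-), a log2 difference of 0.35, and the others gave 0.08 and 0.14. 4B(+/+) was the highest array for the first, and for the dimmest of the 3, at 199 in C57 and 219 in 4B(+/+), 4D(+/+) read highest at 259. In the array labelled 4B(-/-) the brightest probe set lay above C57, while the other 2 over the floor were the lowest of the 5 arrays, at 397 and 164. Pde4d read 456 in C57, 484 in 4B(+/+), 467 in 4B(-/-), 523 in 4D(+/+) and 386 in 4D(-/-), 1.06-fold higher in 4B(+/+). The sources used here do not say whether these probes lie in the deleted parts, so the values neither bear out nor contradict the knockout labels.

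Of the 13 phosphodiesterase genes over the floor, Pde4b and Pde4d included, 1 was past 1.5-fold, and the median was 0.09. In so short a list, 1 cannot be told from the share of all genes, 2.23% higher and 1.33% lower. Pde3b, the form that insulin activates in fat cells, read 398 in C57, 679 in 4B(+/+), 631 in 4B(-/-), 581 in 4D(+/+) and 551 in 4D(-/-), 1.71-fold higher with C57 as the lowest array. Pde9a, which hydrolyses cyclic GMP, was 1.46-fold lower at 153 against 222. Pde5a, which also hydrolyses cyclic GMP, was 1.22-fold lower and Pde2a 1.04-fold lower, while Pde6d, a subunit that binds prenylated proteins, was 1.12-fold higher. Pde7b was 1.16-fold and Pde8a 1.09-fold higher, and Pde8b, Pde7a and Pde12 1.09-fold, 1.07-fold and 1.08-fold lower. Pde4dip, an anchoring protein and no enzyme, was 1.29-fold higher.

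At 1.5-fold 2.23% of all genes were higher and 1.33% lower. In the list of cyclic AMP production and sensing 1 of 27 genes passed, near that share, and the median was -0.02. That gene is Crem, whose products include the repressor ICER and which responds to cyclic AMP itself, at 138 in C57, 239 in 4B(+/+), 261 in 4B(-/-), 225 in 4D(+/+) and 230.4 in 4D(-/-), 1.73-fold higher. The prostacyclin receptor Ptgir was 1.42-fold lower and the regulatory subunit Prkar2b 1.36-fold higher. The cyclases Adcy8, Adcy9 and Adcy7 were 1.26-fold, 1.24-fold and 1.18-fold lower, and the catalytic subunit Prkaca 1.17-fold.

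Backcrossed lines can keep stretches of donor chromosome, above all near a targeted allele. By its title 4B(+/+) does not carry that allele, so the neighbours of Pde4b are described without being a check for donor chromosome. The 20 nearest counted genes on each side of Pde4b in RefSeq order (GRCm38.p6, names and order only) were examined. Of these 40 genes 0 passed 1.5-fold either way, against 2.23% and 1.33% of all genes, and the median was 0.0. On the side that holds Lepr the farthest were Efcab7 at -0.55, between 58.4 in C57 and 39.8 in 4B(+/+), Alg6 at -0.52 and the orphan receptor kinase Ror1 at -0.50. Leprot and Lepr, the leptin receptor gene and its overlapping partner, gave -0.48 and -0.45. On the other side of Pde4b the farthest were Prkaa2, a catalytic subunit of the kinase AMPK, at -0.37, the thioesterase Acot11 at -0.36, the deiodinase Dio1 at 0.33, Wdr78 at 0.31 and Sgip1 at -0.29. Of 12 genes with known differences between 129 strains and C57BL/6J, 0 passed 1.5-fold, against the same 2.23% and 1.33% of all genes. In so short a list, 0 cannot be told from that share. Ide was farthest at 1.38-fold lower, and the mitochondrial transhydrogenase Nnt was 1.15-fold lower at 442 against 509.

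Metabolic lists went both ways. Of 25 xenobiotic genes 3 were higher and 2 lower, against 2.23% and 1.33% of all genes, and the median was 0.03. Cyp26b1, which clears retinoic acid, read 519 in C57, 265 in 4B(+/+), 683 in 4B(-/-), 739 in 4D(+/+) and 617 in 4D(-/-), 1.96-fold lower, and 4B(+/+) was the low array here. Aldh3a1 was 1.75-fold, Gsto1 1.70-fold and Ces1f 1.57-fold higher, and Fmo2, a monooxygenase abundant in lung, 1.5-fold lower. Of 22 genes of oxidative stress defence 1 was lower, catalase (Cat) at 1.61-fold, and 1 higher, Mt2. Of 24 cell cycle genes 0 passed 1.5-fold, which in a list of this size is near the share of all genes, and the median was -0.12.

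Of the 25 largest rises, several belong to no list. The candidate tumour suppressor Ecrg4 was 3.67-fold higher at 400 against 109, Tmem45b 3.43-fold at 530.5 against 155, the pyrophosphatase Ppa1 3.31-fold at 1701 against 513 and the secreted phospholipase Pla2g5 3.23-fold at 112 against 34.8. C57 was the lowest array for Ecrg4, Ppa1 and Pla2g5, and 4D(-/-) for Tmem45b. Ppa1 was bright in every array, with 1568 in 4B(-/-), 1198 in 4D(+/+) and 766 in 4D(-/-).

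Falls outside the lists were smaller. The germ-cell RNA-binding gene Rbm46 was 2.83-fold lower at 23.2 against 65.6, the PR-domain gene Prdm8 2.50-fold at 53.2 against 133, and the zinc finger gene Zc3h6 2.27-fold at 44.8 against 102. The heavy chain segment Ighv14-2 was 2.31-fold lower, the protocadherin Pcdh17 2.25-fold, the guidance receptor ligand Sema5a and the regulator Zfp503 2.05-fold each, and the scramblase Plscr2 2.02-fold. Hmcn1, a basement membrane hemicentin, was 2.16-fold lower at 408 against 881, but 4D(-/-) read 923. C57 was the highest array for all of these except Hmcn1. That rank is partly set by the choice, since all were called for being lower than C57. Rbm46, Prdm8 and Zc3h6 also reached the floor in C57 alone.

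The count by probe set, the unit of the deposited table, was 127 higher and 48 lower of 20802 over the floor, 0.611% and 0.231%. Of the 120 called genes 26 had a further probe set over the floor. In 24 of these all probe sets agreed in direction and in 16 all passed 2-fold, and the exceptions were Iglv1 and Ccn1. Of the called probe sets 5 of the higher and 9 of the lower had no gene symbol in the annotation. The brightest unnamed rises were 1420465_s_at, at 396 in C57, 2407 in 4B(+/+), 3199 in 4B(-/-), 2302 in 4D(+/+) and 140.2 in 4D(-/-), and 1417867_at, at 2518 in C57, 7116 in 4B(+/+), 6572 in 4B(-/-), 6617 in 4D(+/+) and 1758 in 4D(-/-). In both, C57 and 4D(-/-) were low and the other 3 arrays high. Tmem45b and Adipoq above have the same pair of low arrays. The largest unnamed falls were 1459916_at, at 92.0 in C57 and 33.8 in 4B(+/+), and 1458040_at, at 181 and 74.5. C57 was the highest of the 5 arrays for each, and 1459916_at reached the floor in C57 alone.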

How the data were processed

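Total RNA of whole lung was labelled from 0.3 µg per pool with a 3′ IVT kit and hybridised to an Affymetrix mouse array, per the labels' protocols. On a linear scale, the authors deposited an intensity for every probe set in each array, and the submitters' processing notes name RMA, which corrects background and makes array distributions equal. The sources used here give neither its version and settings nor the genome build of the probe sets.

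The deposited intensities were converted to log2 and subtracted, 4B(+/+) minus C57. In the platform annotation 34958 probe sets have 1 symbol, 932 have several and 9211 have none. Symbols were updated through the RefSeq table for GRCm38.p6. Each gene was represented by the brightest of its 1-symbol probe sets, judged by mean log2 in the 5 arrays, and counted if its highest array reached 64. Calls were made at 2-fold and for list members at 1.5-fold. The number of arrays limits the precision, and no test was made.

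Of 51 lists with 1006 symbols, 913 were measured and 738 lay over the floor. Members and lists were chosen with earlier results of these data known. Named were the 25 largest rises, the falls past 2-fold, up to 8 members per list by size of difference, all clock genes and phosphodiesterases, and 5 neighbours of Pde4b on each side. Alternatives were other floors, folds, probe set rules, scalings and reference arrays. Counting was tested on simulated data. Python 3.11.15 with pandas 2.3.3, numpy 2.4.6 and matplotlib 3.10.9, and R 4.3.3 with limma 3.58.1 for cyclic loess, were used.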

Additional observations from a re-analysis of the deposited data

How the results depend on the processing

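At a floor 2-fold lower or higher, a floor in the compared pair alone, no floor, cyclic loess and centring on the median, the counts of higher and lower genes stayed within 1.5 times those reported. At 1.5-fold 256 genes were higher and 153 lower, with 384 and 359 probe sets, and 62.6% of called genes were higher against 80.0% at 2-fold. At 3-fold the counts were 26 and 8 genes, and 33 and 9 probe sets. With the median over all probe sets of a gene, 15 genes were lower, and Iglv1 turned to -0.21. At the higher floor the mast cell and basophil list turned to -0.05. Raising the dimmer array to 64, chosen after seeing the data, left 69 and 21 genes.

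Other reference arrays turned the direction of lists and genes. Against 4D(+/+) the counts were 11 higher and 103 lower genes, 9.65% higher, and 19 and 135 probe sets. Medians became -1.87 for skeletal muscle, -0.08 for cardiac muscle, -0.10 for adipose tissue, 0.59 for cartilage, bone and tendon, -0.02 for B cell, -0.19 for squamous and basal epithelium, -0.68 for thyroid and parathyroid and -0.61 for gastric, salivary and mucous gland. They became 0.05 for clock core loop, 0.01 for clock output, 0.03 for immediate early transcription factors and 0.00 for heat shock chaperones. Genes turned to -0.32 (Ucp1), -0.34 (Cidea), -0.19 (Chga), -0.46 (Ecrg4), -0.81 (Thrsp), -0.18 (Tmem45b), -0.13 (Retn), -0.08 (Adipoq), -0.82 (Orm1), -1.03 (Cox8b), -0.01 (Igha), -0.10 (Jchain), -0.03 (Ltf), -0.57 (Krt15), -1.99 (Krt4), -0.58 (Pth), -0.41 (Amy1), -1.67 (Tff2) and -0.71 (Elovl6). Muscle genes turned to -1.89 (Acta1 and Ckm), -2.27 (Tnnc2), -2.55 (Tnni2), -2.82 (Mylpf), -2.24 (Myl1), -1.48 (Myh2) and -2.33 (Tnnt3), and Glycam1 to 0.03, Per2 to 0.10 and Cirbp to 0.04.

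Against the mean of C57 and 4D(+/+), 21 genes were higher and 11 lower (65.6% higher), with 28 and 14 probe sets. Medians were -0.57 for skeletal muscle, 0.30 for adipose tissue, 0.92 for cartilage, bone and tendon, -0.35 for B cell, -0.03 for squamous and basal epithelium, -0.02 for thyroid and parathyroid, -0.05 for gastric, salivary and mucous gland and 0.25 for heat shock chaperones. Acta1 and Ckm turned to -0.38, Tnnc2 to -0.58, Tnni2 to -0.72, Mylpf to -0.88, Myl1 to -0.59, Myh2 to -0.22, Tnnt3 to -0.65, Krt4 to -0.27 and Tff2 to -0.20. With the mean of 4B(+/+) and 4B(-/-) against C57, 77 probe sets were lower, 69.2% of called genes were higher, and medians were 0.26 for skeletal muscle, -0.22 for thyroid and parathyroid and -0.10 for gastric, salivary and mucous gland, with Chga at -0.09 and Pth at -0.29. These shifts follow from the other arrays' own values. No paired analysis was possible because each strain has 1 array.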
